A study of Mus musculus with 24 samples.

Results

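The comparison described here is that of 3T9 cells carrying the HEA form of MycER after 8 h against 4 h in OHT. It was chosen by the labels alone, as the 3 libraries of MycER HEA at 8 h and the 3 at 4 h, 6 of the 24 RNA-seq libraries of the series. 3T9 is an immortalised mouse fibroblast line. The other 18 libraries are cells infected with the empty vector (EV) and cells with the WT or RA form of MycER, each with 3 libraries at 4 h and 3 at 8 h. All 4 populations received OHT for the same times, the EV controls included, and libraries without OHT were not used here. The sources used here do not give the residues changed in HEA and RA, the promoter of the vector, or whether a population is a pool or a single clone. They also do not say that the numbered libraries of a group came from separate cultures. The p-values therefore reflect the spread between these libraries alone, and that spread may be technical.

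Myc is a transcription factor that binds DNA together with Max, most tightly at the E-box CACGTG, and is known for driving growth, ribosome production and metabolism. MycER is a fusion of Myc with the part of the oestrogen receptor that binds hormone. The fusion is held inactive until OHT (4-hydroxytamoxifen) binds that domain, so time in OHT is time with an active fusion protein. Comparing a later with an earlier time follows what went on changing after the first hours of activation, together with whatever else changed in the cultures over those hours.

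Levels are RPKM, that is reads corrected for the length of the gene and the depth of the library, and changes are log2 fold changes (8 h over 4 h) ± SE on the scale of log2(RPKM + 0.5). This scale understates changes at low RPKM. A gene was called when its adjusted p from limma, fitted over 12268 genes and all 24 libraries, was under 0.05. Reads recovered from the RPKM values totalled 9.82 to 12.8 M per library. Esr1, whose hormone-binding part is in the construct, was at 12.5, 12 and 10.1 RPKM in HEA at 4 h and 11, 10.4 and 9.26 at 8 h, against at most 0.385 in EV. Its level in HEA did not pass the test between the times (-0.16 ± 0.14, adjusted p = 0.557), nor did reads assigned to Myc (55.7 ± 11 RPKM at 4 h, 49.5 ± 5.4 at 8 h, SD, n = 3). The 12 fibroblast markers summed to 691 to 761 RPKM at 4 h and 683 to 743 at 8 h, with 3 of the 12 under 1 RPKM at each time. The 8 epithelial markers summed to at most 1.05 RPKM and the 6 endothelial markers to at most 0.639, while the 7 macrophage markers summed to 19.5 to 22.8 over both times. The 6 muscle markers summed to 2.40 to 3.25 RPKM at 4 h and 1.60 to 2.01 at 8 h, with 5 of the 6 under 1 RPKM, and the 6 adipocyte markers to 1.63 to 2.81 and 1.63 to 5.48. The muscle sums did not overlap between the times, and their part in the results was not tested. In bulk RNA, fewer cells of a kind and less RNA per cell cannot be told apart.

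Between 4 h and 8 h the HEA cells raised 13 genes of sterol synthesis and lowered, among others, the efflux pump gene Abcb1b, the zinc transporter gene Slc39a11 and the integrin gene Itga6. In all, 409 genes were called, 3.33% of those tested, 154 of them higher at 8 h (1.26%) and 255 lower (2.08%). The changes were small, with a median log2 fold change of 0.48 among the higher genes and -0.46 among the lower ones, and 6 higher and 8 lower genes moved by at least 1. Of those 14 genes, 7 are miRNA genes. The 3 libraries of each time did not overlap in 398 of the 409 genes and in 2649 of the 12268 tested (21.6%).

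The count rests on the spread shared by all 8 groups and on single libraries. With the 6 HEA libraries alone, which leave 4 residual degrees of freedom, 2 genes passed (Gjb2 and Mir141), and all 409 had an unadjusted p under 0.05, as did 1889 genes in all. Leaving out 4 h replicate 2 left 31 higher and 74 lower genes, leaving out 8 h replicate 2 left 37 and 114, and leaving out 8 h replicate 3 left 29 and 100. Without 4 h replicate 3 there were 337 and 281, and without 4 h replicate 1 there were 101 and 221. All 409 genes kept their direction in the 6 fits that each left out 1 HEA library, and 78 genes (22 higher, 56 lower) were called in every one of them. These 78 are named below as calls that held in all 6 fits.

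**Figure D1:**
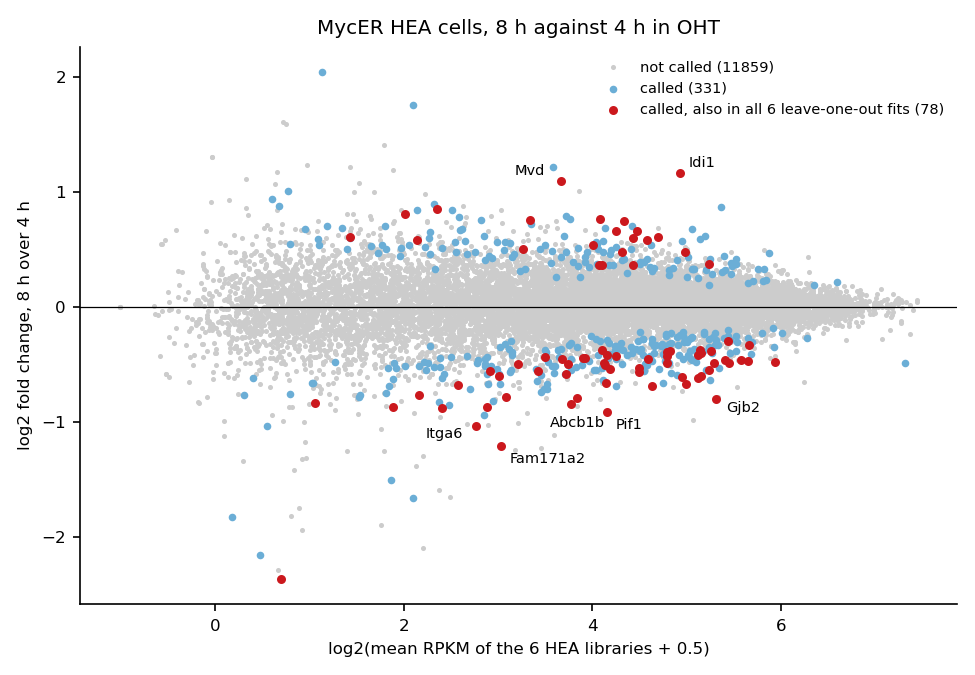
Log2 fold change of each tested gene in HEA cells, 8 h over 4 h (vertical), against its mean level over the 6 HEA libraries on a log2 scale (horizontal). Grey points were not called, blue points were called, and the 78 red points were called in all 6 fits that left out 1 HEA library. Idi1 and Mvd lie above most called genes of their level, and Itga6 and Fam171a2 lie lowest among the labelled genes.

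Cholesterol is built from acetyl units through mevalonate, farnesyl diphosphate and squalene, and the genes of this route are known to rise together when membrane sterol is low. Of 31 tested genes of cholesterol and fatty acid synthesis, 13 rose in HEA cells and none fell, against 1.26% of all genes higher. The list's median change in HEA was 0.19, against 0.03 over all genes, and it was 0.15 in EV, 0.07 in WT and 0.14 in RA. In HEA voom, the other test run, gave 12 higher and 0 lower. The 13 were enzymes or carriers of the sterol route, among them Mvk, Mvd, Idi1, Fdps, Fdft1, Sqle, Lss, Cyp51, Msmo1, Nsdhl, Hsd17b7 and Stard4. The fatty acid genes Fasn, Acaca, Acly, Scd1, Scd2, Elovl6, Fads1 and Fads2 did not pass, with values of -0.06 to 0.19.

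Idi1, which isomerises isopentenyl diphosphate, was at 25.6, 11.1 and 19.6 RPKM in the 3 libraries at 4 h and at 30.9, 50.9 and 41.7 at 8 h. The 2 times did not overlap, which the naming rule requires, and replicate 2 was the lowest library at 4 h and the highest at 8 h. The rise was 1.16 ± 0.20 (adjusted p = 0.00324). Mvd, the decarboxylase that makes isopentenyl diphosphate, went from 7.39, 6.93 and 8.10 to 12.5, 20.7 and 17.3 RPKM, a rise of 1.10 ± 0.15 (adjusted p = 0.000372). The libraries at 8 h were farther apart from each other than those at 4 h. Fdft1, squalene synthase, went from 12.3, 11.2 and 12.5 to 17.7, 23.4 and 21.4 RPKM (0.77 ± 0.0985, adjusted p = 0.000189). Lss, lanosterol synthase, went from 16.2, 14.6 and 12.8 to 20.3, 30.1 and 24.4 RPKM (0.75 ± 0.11, adjusted p = 0.000527). Stard4, a carrier that moves sterol between membranes, rose by 0.66 ± 0.11 and Msmo1, a sterol oxidase, by 0.47 ± 0.0855. Among the 3 libraries at 8 h, replicate 1 was the lowest and replicate 2 the highest for each of these 6 genes.

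These 6 genes held in all 6 fits, and the other 7 did not. Without 8 h replicate 2 the calls of Mvk, Fdps, Sqle, Cyp51, Nsdhl and Hsd17b7 were lost (adjusted p of 0.0558 to 0.258). Without 4 h replicate 2 those of Mvk, Sqle, Nsdhl and Hsd17b7 were lost (0.0916 to 0.187), and without 8 h replicate 3 those of Mvk, Fdps, Sqle, Nsdhl and Hsd17b7 (0.0543 to 0.198). Mvk, Sqle and Hsd17b7 were also lost without 4 h replicate 1 (0.0624 to 0.0925) or 4 h replicate 3 (0.0530 to 0.104). Hmgcs1, an early enzyme of the route, was listed at 0 in all 6 HEA libraries and at no more than 0.0117 RPKM in any library, so it could not be followed.

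Promoters are shown for 4 of the genes that held, taken in order of p from limma among those with a single usable window. Fdft1 and Stard4 also held and are not shown. The sequences are the RefSeq windows of GRCm38.p6, from 250 bases before to 50 after the start of the gene, written 5′ to 3′ on the gene's strand. Capitals mark CCAAT, the letters bound by the factor NF-Y, or its reverse ATTGG.
Mvd, chr8:122443373-122443672, minus strand: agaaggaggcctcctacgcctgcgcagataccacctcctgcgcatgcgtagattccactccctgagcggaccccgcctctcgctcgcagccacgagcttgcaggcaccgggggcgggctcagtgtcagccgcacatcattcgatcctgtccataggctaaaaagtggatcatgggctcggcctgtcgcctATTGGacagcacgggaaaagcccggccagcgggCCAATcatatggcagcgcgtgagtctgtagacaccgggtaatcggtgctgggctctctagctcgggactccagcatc
Lss, chr10:76531355-76531654, plus strand: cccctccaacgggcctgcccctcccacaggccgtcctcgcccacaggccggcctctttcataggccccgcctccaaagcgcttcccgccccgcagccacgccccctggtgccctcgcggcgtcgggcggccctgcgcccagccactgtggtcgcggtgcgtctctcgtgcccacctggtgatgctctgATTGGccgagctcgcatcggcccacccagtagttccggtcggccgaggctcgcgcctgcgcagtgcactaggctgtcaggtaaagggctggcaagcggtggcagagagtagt
Idi1, chr13:8885356-8885655, plus strand: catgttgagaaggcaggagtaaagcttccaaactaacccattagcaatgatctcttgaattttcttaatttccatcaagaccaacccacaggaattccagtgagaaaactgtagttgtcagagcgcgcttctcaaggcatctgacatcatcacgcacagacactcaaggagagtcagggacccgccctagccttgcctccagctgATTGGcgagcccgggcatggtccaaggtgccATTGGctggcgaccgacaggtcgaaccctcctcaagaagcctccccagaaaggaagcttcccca
Msmo1, chr8:64733529-64733828, minus strand: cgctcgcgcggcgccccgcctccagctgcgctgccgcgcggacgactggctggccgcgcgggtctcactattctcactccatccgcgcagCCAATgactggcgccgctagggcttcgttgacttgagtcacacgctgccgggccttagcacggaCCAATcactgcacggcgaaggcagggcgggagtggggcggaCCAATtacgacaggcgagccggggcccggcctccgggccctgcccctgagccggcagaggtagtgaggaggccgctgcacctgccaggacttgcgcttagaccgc
CCAAT on either strand was in the window of each of the 8 called sterol genes that the table holds, of 13 called. It was in 73.1% of the 26 windows of tested genes on the list, 38.2% of the 11496 windows of tested genes and 37.4% of all 32851 windows. It was also in 68.2% of the 22 windows of tested clock genes and 51.3% of the windows of all genes called higher. The letters TCACNCCAC, a form of the sterol regulatory element, were in none of the 26 windows and in 1.24% of all. Both motifs were picked after the sterol genes had been seen to rise. The E-box CACGTG was in 10.5% of the windows of genes called higher and 14.9% of those called lower, against 9.97% of windows of tested genes. A match is a description of these letters and does not show that a factor was bound.

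The called sterol genes had values in the same direction in most other groups. All 13 were higher at 8 h in EV and in RA and 11 of 13 in WT, with medians of 0.25, 0.23 and 0.13 against 0.47 in HEA. The 13 were taken because they were called in HEA, which favours a larger HEA median. Over all 31 tested genes of the list the medians were 0.19 in HEA, 0.15 in EV, 0.07 in WT and 0.14 in RA. None of the 13 was called in EV or RA and 3 were called in WT. The difference between the HEA and EV changes did not pass for any of the 13 (lowest adjusted p = 0.855), nor did that between HEA and RA (0.412). Against WT, Fdft1 alone passed (0.64 ± 0.14, adjusted p = 0.0408), and this call held in 3 of the 12 fits that each left out 1 library, with adjusted p as high as 0.130. The authors' deposited table gives Idi1 log2 fold changes against EV of -0.86 at 4 h (adjusted p = 0.000388) and -0.40 at 8 h (0.0540), and Mvd -0.71 (5.8e-05) and -0.33 (0.0478).

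**Figure D2:**
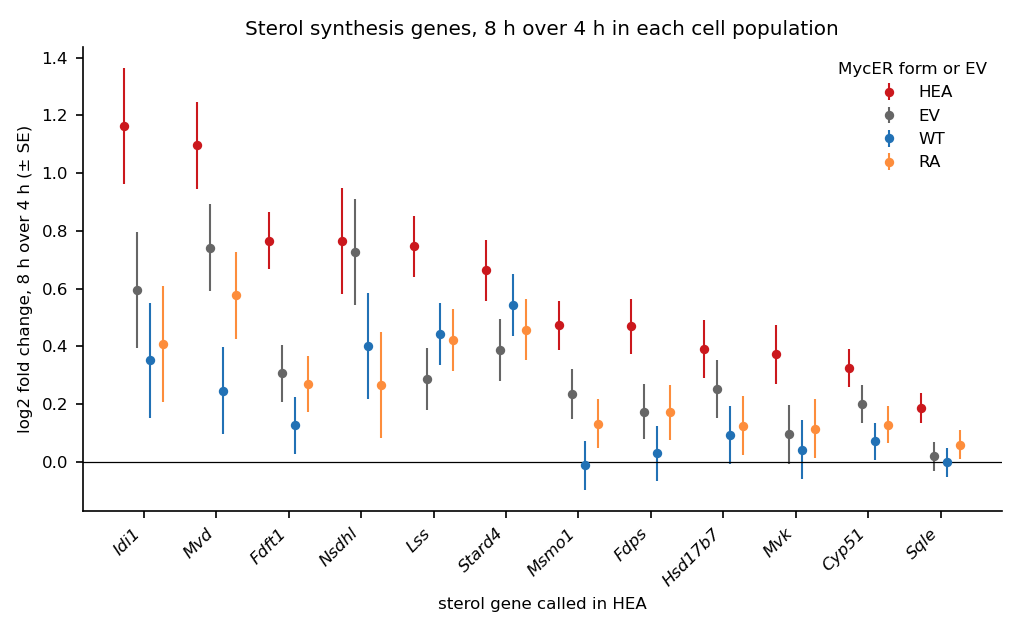
Log2 fold change of 8 h over 4 h ± SE (vertical) for 12 of the 13 sterol genes called in HEA cells (horizontal), in the HEA, EV, WT and RA populations, n = 3 libraries per time. The HEA point is the highest of the 4 for all 12 genes plotted, and the EV and RA points are all above 0. Genes were plotted because they were called in HEA, which favours a high HEA point.

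Other genes of lipid handling were named after their values had been seen. Soat1, which esterifies cholesterol for storage, fell from 15.7, 14.9 and 14.9 to 10.6, 10.7 and 10.5 RPKM (-0.50 ± 0.0641, adjusted p = 0.000189), with little spread at either time. Its times did not overlap, as for 97.3% of called genes. Its change differed from that in WT (-0.54 ± 0.0906, adjusted p = 0.0102), a call that held in all 12 fits. Pcyt2, of phosphatidylethanolamine synthesis, rose by 0.58 ± 0.10 and Acss2, which makes acetyl-CoA from acetate, by 0.61 ± 0.12, and both held in all 6 fits. Scap, the sterol-sensing escort of the factor SREBP, fell by 0.38 (adjusted p = 0.00999), a call lost without 4 h replicate 2 (0.0783).

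Of the 12 largest falls by the naming rule, 10 held in all 6 fits, against 4 of the 12 largest rises. The rule takes only genes whose libraries do not overlap between the times, so their lack of overlap is no further support. Abcb1b, a drug efflux pump of the cell membrane, had the smallest p of all genes. It was at 16.6, 17.4 and 16.9 RPKM at 4 h and at 9.15, 10.4 and 8.29 at 8 h, a fall of -0.84 ± 0.073 (adjusted p = 2.76e-06, and 0.0869 with the HEA libraries alone). The other populations stood at 24.6 to 44.7 RPKM, above every HEA library.

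Slc39a11, a zinc transporter, went from 15.1, 19.1 and 18.8 to 9.68, 9.17 and 10.9 RPKM (-0.80 ± 0.0863, adjusted p = 3.44e-05). Pif1, a DNA helicase, went from 19.1, 29.1 and 20.6 to 12.3, 11.6 and 11.2 RPKM (-0.91 ± 0.11, adjusted p = 7.93e-05). Replicate 2 was the highest of the 4 h libraries for both genes. Smpdl3b, a membrane-bound relative of the sphingomyelinases, went from 8.85, 9.68 and 8.50 to 4.53, 4.05 and 5.58 RPKM (-0.87 ± 0.11, adjusted p = 0.000189). Fam171a2 had the largest fall among genes taken by the naming rule, from 8.63, 15.7 and 8.90 to 4.41, 4.23 and 4.29 RPKM (-1.21 ± 0.22, adjusted p = 0.00461). Its 4 h replicate 2 stood far above the other libraries.

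Sgcd, a subunit of the sarcoglycan complex, fell by 0.88, Cftr, a chloride channel, by 0.88 and Cpa6, a carboxypeptidase, by 0.84, each at a level under 8 RPKM. Pvrl1 (nectin-1, an adhesion protein) had a value of -0.86 that passed only with the full set of HEA libraries or without 4 h replicate 3. Its adjusted p without the other libraries was 0.0891 to 0.225.

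Gjb2, the gap junction protein connexin 26, was lower at 8 h in every population. In HEA it went from 49.5, 49.8 and 50.7 to 28.2, 28.8 and 28.2 RPKM, with replicates close together at each time. The fall was -0.80 ± 0.15 in HEA (adjusted p = 0.00686), beside -1.12 in EV, -1.64 in WT and -0.71 in RA. The difference between the HEA change and those of EV, WT and RA did not pass (adjusted p of 1.0, 0.0882 and 0.929).

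**Figure D3:**
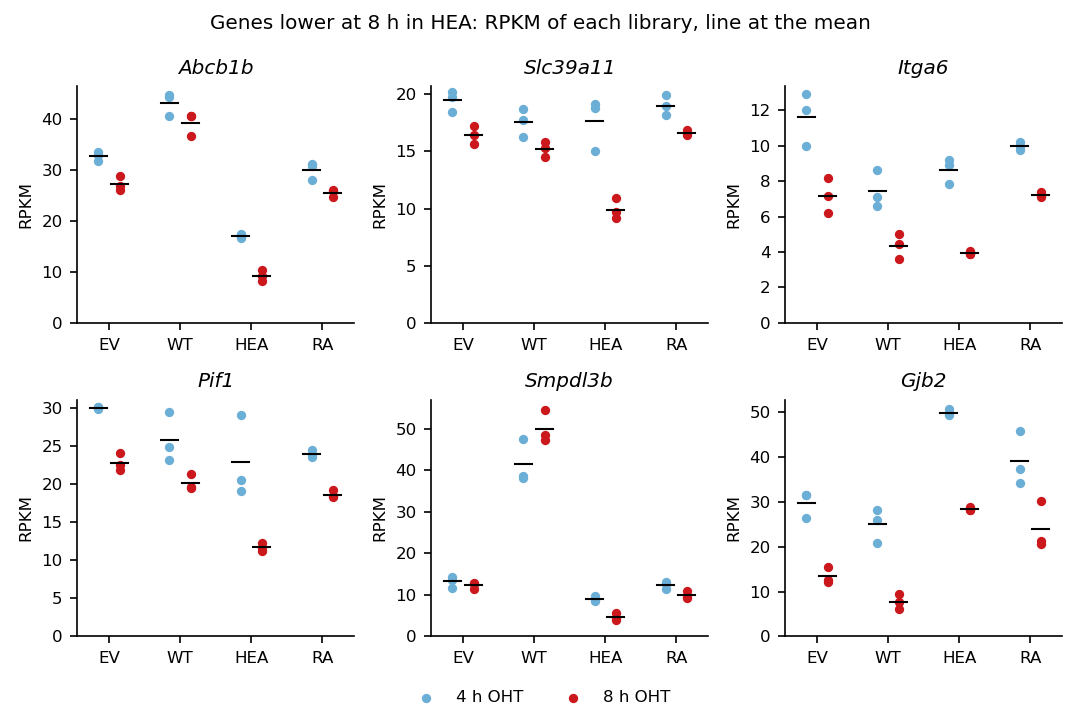
RPKM of each library (vertical, from 0) for 6 genes that fell in HEA cells, at 4 h (blue) and 8 h (red) in the 4 populations (horizontal), with a line at the mean of 3 libraries. In HEA the 8 h libraries lie below the 4 h libraries in all 6 panels, as the naming rule required of these genes. For Smpdl3b the WT means move the other way.

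Among rises outside the sterol route, Rab3il1, an activator of Rab proteins, went from 2.45, 3.60 and 3.42 to 5.49, 5.93 and 6.73 RPKM (0.85 ± 0.14, adjusted p = 0.00175), and Ubxn2b, an adaptor of the p97 ATPase, from 2.64, 1.90 and 2.79 to 4.14, 4.94 and 4.76 (0.81 ± 0.13, adjusted p = 0.00221). Both held in all 6 fits. That their times did not overlap was a condition of the naming rule. Rgcc, a regulator of the cell cycle, had the largest rise among genes taken by the naming rule, from 8.03, 5.94 and 6.27 to 14.7, 16.6 and 17.4 RPKM (1.22 ± 0.27, adjusted p = 0.0174). Its call was lost without 4 h replicate 2 (0.0947), 8 h replicate 2 (0.0666) or 8 h replicate 3 (0.0785). Its values in EV and RA were 0.95 and 0.97.

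The remaining large rises were Actr3b, Scrn3, Rtp4, Ddit4, Serpinb9, Il18 and Thap2, with log2 fold changes of 0.79 to 0.94. Each of the 7 lost its call without 4 h replicate 2 (adjusted p of 0.0790 to 0.244) and without 8 h replicate 3 (0.0543 to 0.224). Actr3b, Rtp4, Serpinb9 and Il18 were also lost without 4 h replicate 1 (lowest adjusted p = 0.0567), Actr3b and Rtp4 without 8 h replicate 1 (0.0891 and 0.0674), and Scrn3, Rtp4, Ddit4, Serpinb9 and Il18 without 8 h replicate 2 (0.0539 to 0.145). Ddit4, an inhibitor of mTOR signalling, went from 36.0, 18.7 and 32.7 to 43.0, 58.7 and 54.8 RPKM, with replicate 2 again lowest at 4 h and highest at 8 h.

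The integrin, receptor kinase and glycan enzyme lists were put together after their values were seen, and their counts are a description. Of 18 tested integrin subunits 2 fell and none rose, against 2.08% of all genes lower. Their median was -0.17 in HEA, -0.24 in EV, -0.16 in WT and -0.04 in RA. Itga6, which pairs with a beta subunit to bind laminin, went from 7.82, 8.90 and 9.17 to 3.90, 3.92 and 4.04 RPKM (-1.03 ± 0.12, adjusted p = 7.93e-05). Itga3, another laminin-binding subunit, went from 46.2, 47.2 and 39.4 to 30.2, 30.8 and 29.0 RPKM (-0.55 ± 0.0996, adjusted p = 0.00431). Both held in all 6 fits. Itga6 was also lower at 8 h in EV (-0.66), WT (-0.71) and RA (-0.44), and the difference from HEA did not pass against any of them (lowest adjusted p = 0.375). Cdh2, the adhesion protein N-cadherin, fell by 0.38 (adjusted p = 0.00258).

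Of 30 tested receptor tyrosine kinases 9 fell and none rose, against 2.08% of all genes lower. The median of the 30 was -0.23 in HEA, -0.15 in EV, -0.08 in WT and 0.01 in RA. Fgfr2, a receptor for fibroblast growth factors, went from 13.9, 17.8 and 14.4 to 10.1, 9.12 and 10.8 RPKM (-0.59 ± 0.10, adjusted p = 0.00350) and was the one of the 9 that held in all 6 fits. Egfr went from 26.3, 39.7 and 34.9 to 25.0, 17.7 and 24.3 RPKM, where the lowest library at 4 h was close to the highest at 8 h. Without 4 h replicate 2 the calls of Axl, Egfr, Epha4, Ephb2, Erbb2, Fgfr3, Met and Ror2 were lost (adjusted p of 0.0699 to 0.260). Without 8 h replicate 2, or without 8 h replicate 3, 6 of the 9 were lost (0.0894 to 0.133 and 0.0710 to 0.158), and without 4 h replicate 1, 4 of the 9 (0.0505 to 0.0729). Ephb2 was also lost without 8 h replicate 1 (0.0620). The values of all 9 were below 0 in EV and WT and those of 7 in RA, with medians of -0.28, -0.27 and -0.10 against -0.54 in HEA. These 9 were taken for their calls in HEA, which favours a larger fall there. In EV and RA 0 of the 9 were called by limma and in WT 3, and none differed from HEA by the test (lowest adjusted p = 1.0 against EV, 0.229 against WT and 0.398 against RA).

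Enzymes that build the sugar chains of glycoproteins and proteoglycans had 12 lower and none higher of 83 tested, against 2.08% of all genes lower. Their median was -0.19 in HEA, -0.04 in EV, -0.02 in WT and -0.01 in RA. B4galt2, a galactosyltransferase, went from 16.8, 17.5 and 16.5 to 11.2, 12.9 and 12.8 RPKM (-0.45 ± 0.0874, adjusted p = 0.00752). Eogt, which puts N-acetylglucosamine on EGF repeats, went from 12.4, 12.2 and 12.9 to 9.06, 9.15 and 9.11 (-0.43 ± 0.09, adjusted p = 0.0111). B4galt2 and Eogt held in all 6 fits. Their times did not overlap, as for 97.3% of called genes. Of the other 10, 10 lost their call without 8 h replicate 2, 9 without 4 h replicate 2 and 8 without 8 h replicate 3 (adjusted p of 0.0544 to 0.262 over these). Without 4 h replicate 1, 4 h replicate 3 or 8 h replicate 1 there were 5, 3 and 4 lost (0.0515 to 0.107). The median of the 12 called genes was -0.42 in HEA, -0.13 in EV, -0.14 in WT and -0.08 in RA. Being called in HEA was how they were chosen, which favours a larger fall there. Of the 12, 1 differed from WT by the test (St6galnac4, -0.48 ± 0.0977, adjusted p = 0.0273, held in 7 of 12 fits).

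In lists of genes that Myc is known to drive, the shares called between the times were near or below that of all genes (3.33%). Of 63 general Myc targets 2 fell and none rose, with 2.08% of all genes lower, and the median was 0.00. Utp20, of the machinery that cuts ribosomal RNA, went from 46.7, 47.5 and 47.5 to 37.7, 40.2 and 37.5 RPKM (-0.29 ± 0.0479, adjusted p = 0.00202). Slc19a1, a folate carrier, went from 34.0, 33.4 and 27.9 to 23.5, 22.7 and 21.1 RPKM (-0.49 ± 0.08, adjusted p = 0.00214). Both held in all 6 fits. Of 69 ribosome biogenesis genes 3 fell (Heatr1, Ftsj3 and Polr1a, by 0.23 to 0.28) and none rose, and all 3 calls were lost without 8 h replicate 3 (adjusted p of 0.0536 to 0.131), and those of Ftsj3 and Polr1a also without 4 h replicate 2 (0.0913 and 0.111). No gene was called by limma among translation factors and tRNA synthetases (32 tested), nucleotide and one-carbon metabolism (28) or glycolysis (20), where 4, 6 and 3 had an unadjusted p under 0.05 (18.2% of all genes did) and voom called none.

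Genes of the cell cycle and of growth arrest were both among those that moved. Of 40 genes of G1/S control and replication 3 rose and none fell, against 1.26% of all genes higher, with a median of 0.20. Cdc6, which loads the replicative helicase, went from 18.1, 14.7 and 15.8 to 21.5, 22.9 and 23.7 RPKM (0.48 ± 0.0903, adjusted p = 0.00623) and held in all 6 fits. Cdk2 and Cdc45 rose by 0.28 and 0.31, and both were lost without 4 h replicate 2 (0.164 and 0.0628), 8 h replicate 2 (0.0868 and 0.147) or 8 h replicate 3 (0.157 and 0.0937). Cdc45 was also lost without 4 h replicate 3 (0.0652). Of 40 mitotic genes 2 fell (Prc1 and Kif23, by 0.28 and 0.25) and none rose, against 2.08% of all genes lower. Values above 0 were found for 4 of the 40, against 6826 of all 12268 genes. The median of the 40 was -0.12 in HEA, -0.08 in EV, -0.09 in WT and -0.12 in RA. Neither Prc1 nor Kif23 held without 4 h replicate 2 (0.0607 and 0.0609), 8 h replicate 2 (0.0629 and 0.148) or 8 h replicate 3 (0.0543 and 0.0824). Kif23 was also lost without 4 h replicate 3 (0.0825).

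Of 27 growth arrest genes 4 rose and none fell, against 1.26% of all genes higher. Sesn3, a sestrin that restrains mTOR, went from 16.2, 14.3 and 19.9 to 26.5, 25.8 and 27.2 RPKM (0.66 ± 0.11, adjusted p = 0.00276). Ndrg1, a gene known to be repressed by Myc, went from 22.6, 17.2 and 20.3 to 29.6, 33.8 and 28.8 RPKM (0.61 ± 0.11, adjusted p = 0.00344). Both held in all 6 fits. Gadd45a and Ccng2 rose by 0.42 and 0.69, and both were lost without 4 h replicate 1 (0.0507 and 0.0803) or 8 h replicate 3 (0.0668 and 0.123). Ccng2 was also lost without 4 h replicate 2 (0.0916) and Gadd45a without 8 h replicate 2 (0.0529). The median of the 27 genes was 0.12 in HEA, 0.13 in EV, 0.09 in WT and 0.17 in RA. All 4 called genes had values above 0 in EV and RA and 3 in WT, with medians of 0.28, 0.34 and 0.20 against 0.63 in HEA. Choosing the 4 by their calls in HEA favours a larger rise there. By the test of the difference none differed from EV or RA and 1 from WT.

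Of 17 tested genes of the circadian clock 5 fell and none rose, against 2.08% of all genes lower. The median of the 17 was -0.20 in HEA, -0.07 in EV, -0.09 in WT and 0.02 in RA. Per2, a repressor of the clock, went from 10.2, 10.4 and 9.35 to 6.73, 6.81 and 6.41 RPKM (-0.55 ± 0.13, adjusted p = 0.0191). Cry1, its partner, went from 18.4, 15.6 and 18.9 to 12, 13.6 and 12 RPKM (-0.47 ± 0.10, adjusted p = 0.0147). Tef, an output factor of the clock, went from 23.6, 28.8 and 30.4 to 18.3, 17.2 and 22.4 RPKM (-0.51 ± 0.10, adjusted p = 0.00951). The times did not overlap for any of these, as for 97.3% of called genes. None of the 5 calls, Nr1d1 and Wee1 included, held in all 6 fits. Left were 1 call each without 4 h replicate 1, 4 h replicate 2, 8 h replicate 2 or 8 h replicate 3, and 3 each without 4 h replicate 3 or 8 h replicate 1, with lost calls at adjusted p of 0.0502 to 0.188, and voom gave 3. All 5 called genes had values below 0 in EV, 4 in WT and 3 in RA, with medians of -0.17, -0.25 and -0.04 against -0.48 in HEA. Choosing the 5 by their calls in HEA favours a larger fall there. None differed from HEA by the test (lowest adjusted p = 0.892 against EV, 0.0898 against WT and 0.0863 against RA). The RefSeq windows of Cry1 and Tef held CACGTG and that of Nr1d1 did not, while Per2 and Wee1 were not matched.

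Whether the changes belonged to HEA cells was tested by comparing each gene's change in HEA with its change in another population. Of the 409 genes, 375 had a value of the same sign in EV, 323 in WT and 347 in RA, and 1, 96 and 10 of them were called there. Over all genes tested the sign was shared by 74.3% in EV, 56.3% in WT and 60.0% in RA. Over all 12268 genes the HEA changes had r = 0.53 with those in EV, 0.20 with WT and 0.29 with RA, given as a description across genes. In EV itself 3 genes were called (0.0245% of those tested), in RA 27 (0.22%) and in WT 1038 (8.46%). The difference from EV passed for 2 genes (0.0163%), with 408 (3.33%) at an unadjusted p under 0.05. That from RA passed for 4 (0.0326%) and that from WT for 65 (0.53%), 35 with a higher value in HEA and 30 with a lower one. These 3 comparisons share the 6 HEA libraries.

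L3mbtl3, a chromatin protein that reads methylated lysines, fell in HEA and had values above 0 in EV, WT and RA. It was at 8.74, 8.48 and 8.14 RPKM in HEA at 4 h and at 5.89, 5.96 and 4.91 at 8 h, a fall of -0.56 ± 0.0971 (adjusted p = 0.00338). In EV it was at 4.96, 5.59 and 5.27 and then 5.78, 6.93 and 6.72 RPKM. The HEA libraries stood above all others at 4 h and within their range at 8 h. Its HEA change was lower by 0.83 ± 0.14 than in EV (adjusted p = 0.0372), by 0.72 ± 0.14 than in WT (0.0203) and by 0.98 ± 0.14 than in RA (0.00678).

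Steap1, a membrane protein of the metalloreductase family, went from 26.4, 32.9 and 30.9 to 18.7, 18.7 and 17.7 RPKM in HEA (-0.69 ± 0.0753, adjusted p = 3.44e-05). In EV it was at 47.7, 43.0 and 46.8 and then 43.9, 45.4 and 43.5 RPKM. HEA libraries were below those of every other population at both times. The difference in change was -0.64 ± 0.11 against EV (adjusted p = 0.0372), -0.56 ± 0.11 against WT (0.0202) and -0.66 ± 0.11 against RA (0.0169). Against EV the calls of L3mbtl3 and Steap1 each held in 1 of 12 fits that left out 1 library of HEA or EV, with adjusted p as high as 0.148. L3mbtl3 held without EV 8 h replicate 1 and Steap1 without HEA 4 h replicate 1. Against RA, L3mbtl3 held in 12 of 12 fits and Steap1 in 6, with adjusted p as high as 0.0808 (without HEA 8 h replicate 3). The authors' deposited table gives Steap1 log2 fold changes against EV of -0.55 at 4 h and -1.20 at 8 h, and L3mbtl3 0.70 and -0.17.

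Abcb1b and Bend3, a DNA-binding repressor protein, differed from RA (-0.61 ± 0.10, adjusted p = 0.0244, and -0.63 ± 0.0978, adjusted p = 0.0155) and from WT (-0.71 and -0.51, adjusted p = 0.00265 and 0.0203). Against EV their differences of -0.58 and -0.48 did not pass (adjusted p = 0.0615 and 0.137). The RA differences held in 3 and 8 of 12 fits, with the highest adjusted p, 0.0808 and 0.0805, without HEA 8 h replicate 3. Bend3 in HEA went from 20.1, 19.7 and 19.6 to 13.8, 14.5 and 13.6 RPKM and in RA from 20.2, 20.2 and 19.2 to 21.8, 22.5 and 21.6.

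Against WT, Chac1, which degrades glutathione, had the smallest adjusted p among the genes described here. It went from 35.5, 33.5 and 36.5 to 43.4, 50.02 and 50.5 RPKM in HEA and from 31.8, 29.4 and 28.7 to 18.4, 19.6 and 18.4 in WT. The difference was 1.10 ± 0.13 (adjusted p = 0.000949) and held in 12 of 12 fits, while the rise in HEA itself (0.44 ± 0.0951, adjusted p = 0.0140) was lost without 4 h replicate 2 (0.0818), 8 h replicate 2 (0.0744) or 8 h replicate 3 (0.0795). Smpdl3b differed from WT by -1.15 ± 0.16 (adjusted p = 0.00265), also in 12 of 12 fits. Mxd4, a Max partner that opposes Myc, had values of 0.52 in HEA and -0.70 in WT, a difference of 1.22 ± 0.21 (adjusted p = 0.0121, 11 of 12 fits, 0.0537 without HEA 8 h replicate 3), while its HEA value alone did not pass (adjusted p = 0.0616).

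**Figure D4:**
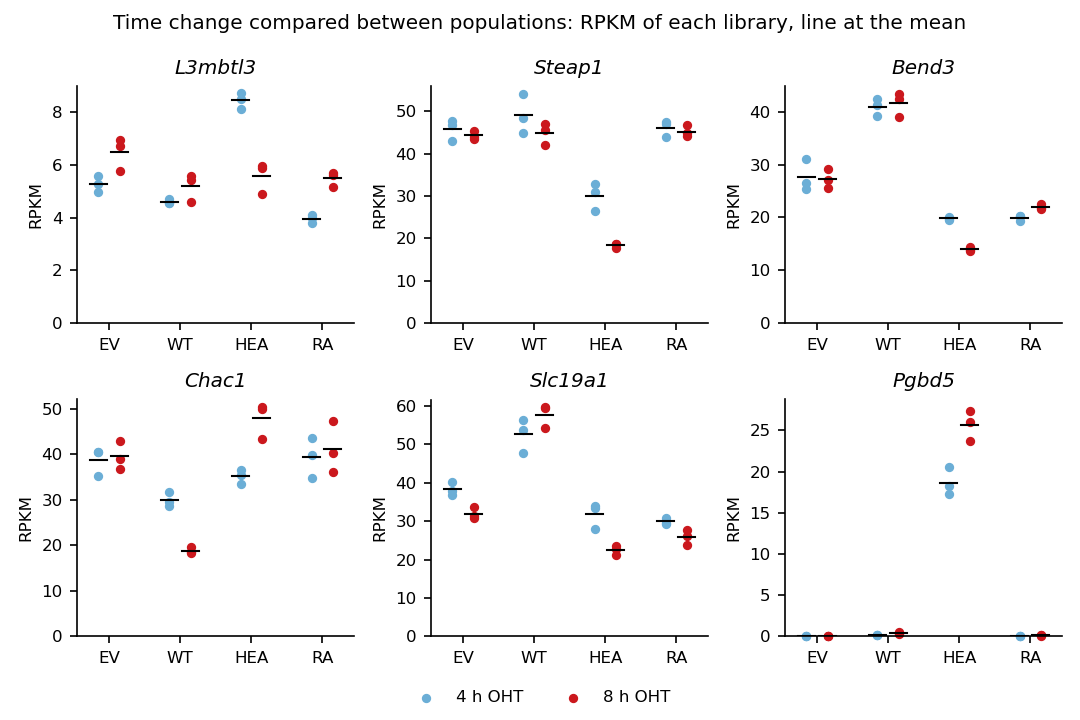
RPKM of each library (vertical, from 0) for L3mbtl3, Steap1, Bend3, Chac1, Slc19a1 and Pgbd5 at 4 h (blue) and 8 h (red) in the 4 populations (horizontal), with a line at the mean of 3 libraries. Steap1 and Bend3 show lower means at 8 h in HEA with nearly level means in EV, and Chac1 moves in opposite directions in HEA and WT.

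Of the other lists, TGF-beta and BMP genes had 4 lower of 30, among them Tgfb2, Tgfbr3 and Fst. Over all genes tested, 1.26% were called higher and 2.08% lower. The calls of Tgfb2, Tgfbr3 and Fst were lost without 4 h replicate 2 (adjusted p of 0.0856 to 0.202) or 8 h replicate 3 (0.0873 to 0.161). Each of the 3 was also lost without at least 1 other HEA library (0.0537 to 0.165). Immediate early genes had 1 higher and 2 lower of 35, of which Plaur, the urokinase receptor, went from 55.7, 46.8 and 48.8 to 32.9, 39.1 and 35.3 RPKM (-0.49 ± 0.0731, adjusted p = 0.000883) and held in all 6 fits. ATF4 and amino acid supply had 2 higher and 1 lower of 34, the fall being Slc1a5, a glutamine transporter (-0.46 ± 0.0828, adjusted p = 0.00424, held in all 6 fits). Cxcl12, a chemokine, was the 1 gene called of 26 interferon and inflammation genes, from 34.9, 39.9 and 35.4 to 26.0, 23.0 and 22.9 RPKM (-0.61 ± 0.0831, adjusted p = 0.000372, held in all 6 fits). Fzd7, a Wnt receptor, was the 1 called of 25 Notch and Wnt genes (-0.49 ± 0.0864, adjusted p = 0.00382, held in all 6 fits).

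Extracellular matrix had 1 higher and 1 lower of 37, lysosome and autophagy 1 higher and 2 lower of 32, and actin, SRF and YAP targets 1 lower of 30. Beside these small counts, 1.26% of all genes were higher and 2.08% lower. No gene was called by limma among p53 targets (25 tested), the Myc, Max and Mxd network (14), hypoxia and hormone responsive genes (14) or nuclear and RNA quality transcripts (7). In these 4 lists 8, 1, 2 and 2 genes had an unadjusted p under 0.05 (18.2% of all genes did), and voom called 2, 1, 1 and 0.

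**Figure D5:**
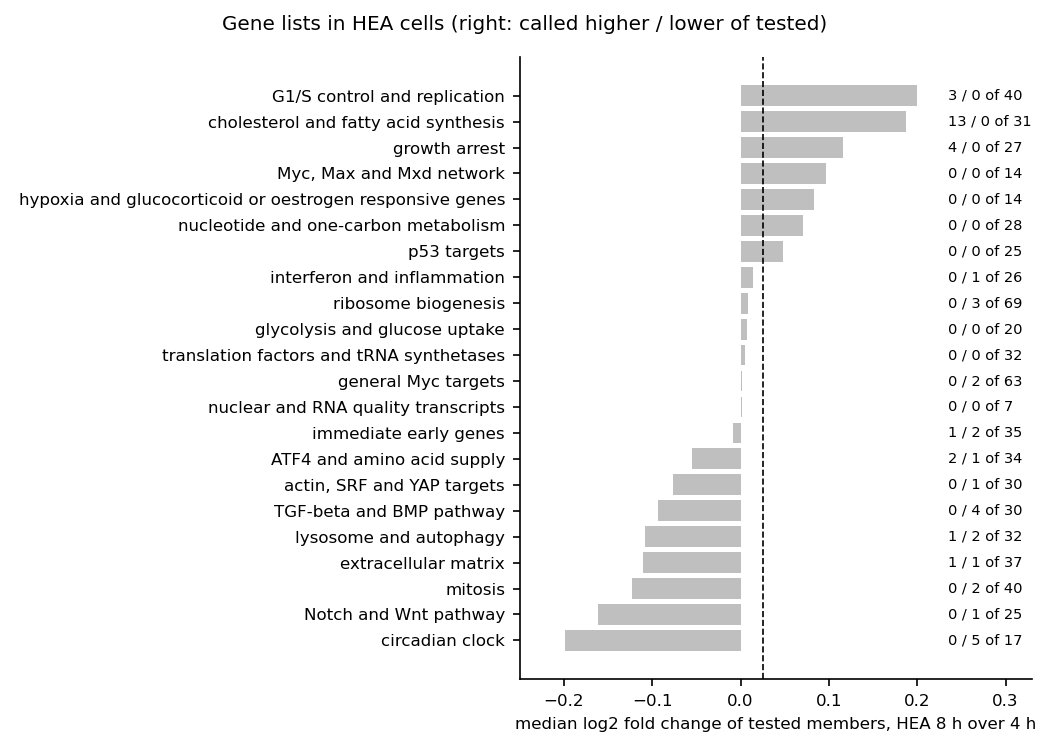
Median log2 fold change in HEA cells, 8 h over 4 h (horizontal), of the tested members of each gene list (vertical), with the counts of members called higher and lower of those tested at the right. The dashed line is the median of all 12268 genes (0.03). Cholesterol and fatty acid synthesis holds the most calls, 13 of 31, against 1.26% of all genes higher.

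Pgbd5, derived from a transposase, was at 18.2, 20.5 and 17.3 RPKM in HEA at 4 h and at 26.0, 27.4 and 23.7 at 8 h, against at most 0.562 RPKM in every library of the other populations. Its value of 0.45 ± 0.14 between the times did not pass (adjusted p = 0.0857), although the times did not overlap. Kcnk10, a potassium channel, was at 21.4, 22.0 and 21.4 and then 21.6, 22.4 and 20.5 RPKM (-0.01 ± 0.0785, adjusted p = 0.979), while it fell in EV by 0.46. Slc4a4, a bicarbonate transporter, had a value of -0.36 ± 0.10 in HEA that did not pass (adjusted p = 0.0579), beside a fall of 0.59 in EV. The differences of these 3 genes from EV did not pass (adjusted p = 1.0, 0.379 and 1.0).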

How the data were processed

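RNA-seq of 24 libraries was used, in 8 groups of 3 by population and time in OHT. Per the labels' protocols, column-purified, DNase-treated total RNA went into stranded total RNA libraries. Without stating roles, the submitters' processing notes list the mouse build mm9 and, as tools, DESeq2, featureCounts 1.4.5-p1, SAMtools, TopHat and TopHat2 2.0.8. The authors deposited RPKM for 21671 genes, per the file headers. A second deposited table compares HEA with EV and holds log2 fold changes and p-values, per the file headers. It was used only where named.

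Log2(RPKM + 0.5) was fitted with limma 3.58.1 (trend) in R 4.3.3 as 8 group means over all 24 libraries (16 residual degrees of freedom), with Benjamini-Hochberg adjustment within each comparison. The 12268 genes tested reached 1 RPKM in 3 or more libraries. Differences between populations were contrasts of contrasts in that fit. RPKM values gave back whole reads, which served voom as another test. The pipeline was tested on simulated data. Python 3.11.15 with pandas 2.3.3, numpy 2.4.6 and matplotlib 3.10.9 did the rest. The sources used here do not give the strand setting or the annotation, so overlapping and near-identical genes could not be told apart.

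Genes were named by a rule: Myc, Esr1, and the 12 rises and 12 falls of largest size among called genes with no overlap between times and a mean of at least 1 RPKM, leaving out predicted genes and gene families of many copies. It adds up to 5 genes each way that differ from EV, 3 members per list by smallest p, members called against their list's majority, and Gjb2, Kcnk10, Slc4a4 and Pgbd5. The comparison, lists and rule were chosen with earlier results of these data known. Other genes were chosen after their values were seen, and some genes are not reported here. Promoter windows of RefSeq (GRCm38.p6) matched 9032 of 12268 tested genes by symbol. Alternatives were other pseudocounts, filters, scalings, a replicate block, voom and leaving out libraries.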

Additional observations from a re-analysis of the deposited data

Results flagged for a closer look

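Each gene here had a change between 4 h and 8 h in HEA cells that differed from the change in another population by the test of the difference itself, with n = 3 libraries per group and time. The values are HEA change minus the other change, in log2.

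Against EV, the differences were -0.64 ± 0.11 for Steap1 and -0.83 ± 0.14 for L3mbtl3, both with an adjusted p of 0.0372 from limma. Against RA, they were -0.98 ± 0.14 for L3mbtl3, -0.63 ± 0.0978 for Bend3, -0.66 ± 0.11 for Steap1 and -0.61 ± 0.10 for Abcb1b, with adjusted p of 0.00678 to 0.0244.

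Against WT, genes with a lower change in HEA were Smpdl3b (-1.15), L3mbtl3 (-0.72), Abcb1b (-0.71), Slc19a1 (-0.62), Slc39a11 (-0.60), Steap1 (-0.56), Soat1 (-0.54), Bend3 (-0.51), St6galnac4 (-0.48) and Heatr1 (-0.29), with adjusted p of 0.00265 to 0.0496. Genes with a higher change in HEA were Mxd4 (1.22), Chac1 (1.10), Fdft1 (0.64), Gadd45a (0.56) and Atp6v0d1 (0.54), with adjusted p of 0.000949 to 0.0435. Calls that held in all 12 fits leaving out 1 library were those of Smpdl3b, Abcb1b, Chac1 and Soat1. Heatr1 held in 1 of the 12 (adjusted p up to 0.168), Fdft1 and Gadd45a in 3 (up to 0.130 and 0.135), Atp6v0d1 in 4 (0.135), Slc39a11 in 6 (0.0851), St6galnac4 and Bend3 in 7 (0.0972 and 0.0722), L3mbtl3 and Steap1 in 9 (0.0722 and 0.0702), Slc19a1 in 10 (0.0608) and Mxd4 in 11 (0.0537).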

How the results depend on the processing

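The counts of 154 higher and 255 lower genes were within 1.5 times under pseudocounts of 0.1 and 1, no filter, a stricter filter, median centring, no trend, the replicate block, voom and cyclic loess, the last added after seeing the data. Quantile normalisation gave 250 and 397. With only the groups compared they were 0 and 2, where fewer samples set the spread. Leaving out 1 HEA library gave 29 to 337 higher and 74 to 281 lower genes. Without the 4 libraries farthest from their groups (added after seeing the data) 96 were higher. The difference from EV (2 genes) gave 6 with no filter, 1 with quantile normalisation, 0 with median centring, 1 with voom, 0 without the farthest libraries and 0 to 2 without 1 library. The difference from WT (65) gave 103 with quantile normalisation, 2 with only the groups compared and 13 to 114 without 1 library. That from RA (4) gave 12 with no filter, 11 with quantile normalisation, 0 with only the groups compared, 7 with cyclic loess, 10 without the farthest libraries and 1 to 7 without 1 library. The cause of these differences in count was not tested. No described call changed direction under any alternative. The median of all genes moved from 0.03 to between 0.00 and 0.01 under the 3 other scalings.

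With the replicate number as a block, 139 genes were higher, 218 lower and 0 differed from EV. Same-numbered HEA libraries at the 2 times had correlations of deviations of -0.00, -0.23 and 0.40, and not every library correlated best with its own number. With 3 libraries per time, such correlations cannot decide whether same-numbered libraries shared a culture or a batch. Of genes above 1 read per base, 2 of 244 were called. With 3 libraries a group, adjusted p-values close to 0.05 move with single libraries.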

Other observations

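The genes here were chosen after their values were seen and stand for no list. Msh6, of mismatch recognition, was at 55.2, 47.2 and 54.3 RPKM at 4 h and at 59.1, 63.0 and 62.5 at 8 h (0.24 ± 0.0558, adjusted p = 0.0233). The genes Brip1, Rad54b, Xrcc1 and Mcm8, whose products act in DNA repair, had values of 0.37 to 0.62 with adjusted p of 0.00741 to 0.0336. None of these 5 calls held in all 6 fits that left out 1 HEA library. All 5 were lost without 4 h replicate 2 (0.0609 to 0.179), and Msh6, Brip1, Rad54b and Xrcc1 also without 8 h replicate 2 (0.0630 to 0.105) or 8 h replicate 3 (0.0873 to 0.0987). Rad54b was lost without 8 h replicate 1 as well (0.0627).

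Ereg, a ligand of the EGF receptor, was at 19.0, 19.0 and 18.9 RPKM at 4 h and at 13, 13.5 and 12 at 8 h (-0.55 ± 0.11, adjusted p = 0.00985), a call lost without 8 h replicate 3 (0.0663). Pdgfb went from 26.2, 33.1 and 22.7 to 21.2, 17.2 and 16.6 RPKM (-0.56 ± 0.13, adjusted p = 0.0185), a call lost without 4 h replicate 2 (0.139), 8 h replicate 2 (0.0862) or 8 h replicate 3 (0.0987).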
